A study of Homo sapiens with 6 samples.

Results

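The loci described here hold 8 genes that mark or control the switch between epithelial and mesenchymal cell states: the epithelial genes CDH1, CDH3, CLDN6 and ESRP1, and the mesenchymal genes CDH2, VIM, ZEB1 and ZEB2. Their members are the accessible chromatin regions whose midpoint fell in 1 of 7 windows around these genes, CDH3 and CDH1 sharing a window, and they numbered 54 of the 118556 regions in the table (0.0455%). The CDH3-CDH1 window held 15 regions, the CLDN6 window 2, the ESRP1 window 3, the CDH2 window 15, the VIM window 2, the ZEB1 window 4 and the ZEB2 window 13. The windows are bounds on the chromosome, drawn with earlier results of these data known, and no value was used to keep or drop a region within them. Accessibility was measured by FAST-ATAC, which sequences the DNA fragments that a transposase releases from open chromatin, in 3 replicates of each of 2 populations sorted from WA09, a human embryonic stem cell line. One was the GCTM-2highCD9highEPCAMhigh population (called high below) and the other the GCTM-2midCD9mid population (called mid below, and low in the sample titles). All 6 samples come from the same line and differ in the sort alone, as far as the labels say; no treatment or passage is given for any of them. The high gate used EPCAM, itself an epithelial adhesion molecule and not one of the 8 genes, and the label of the mid population gives no EPCAM level.

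Cadherins join neighbouring cells through calcium-dependent contacts. CDH1 (E-cadherin) holds epithelial and human pluripotent cells together, CDH3 (P-cadherin) lies beside it on the chromosome, and CDH2 (N-cadherin) marks mesenchymal and neural cells. CLDN6 is a tight junction claudin of early embryonic epithelia, ESRP1 is a splicing factor that sets epithelial isoforms, VIM is the intermediate filament protein of mesenchymal cells, and ZEB1 and ZEB2 are zinc finger repressors that bind E-boxes, among them those of the CDH1 promoter.

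Promoter sequences from RefSeq (GRCh38.p14) were matched by symbol for 5 of the 8 genes: CLDN6, CDH2, VIM, ZEB1 and ZEB2. The 250 bases before the start are shown for CLDN6, whose window held the called regions, for CDH2, whose window held 5 of the 7 member regions higher in high at an unadjusted p under 0.05, and for ZEB1, a repressor whose window held no called region. For CDH2, with 2 listed starts, and ZEB1, with 7, the 5′-most start is shown. They are given 5′ to 3′ on the strand of the gene, at chr16:3018184-3018433 (minus strand), chr18:28177131-28177380 (minus strand) and chr10:31318167-31318416 (plus strand). Capitals mark the E-box CACCTG bound by ZEB factors and the GC box GGGCGG, each on either strand.
CLDN6: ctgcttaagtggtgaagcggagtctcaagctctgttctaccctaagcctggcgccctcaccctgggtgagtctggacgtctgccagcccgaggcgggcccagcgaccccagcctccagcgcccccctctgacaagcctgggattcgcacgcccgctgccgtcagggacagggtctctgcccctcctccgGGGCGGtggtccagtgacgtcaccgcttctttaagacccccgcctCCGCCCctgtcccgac
CDH2: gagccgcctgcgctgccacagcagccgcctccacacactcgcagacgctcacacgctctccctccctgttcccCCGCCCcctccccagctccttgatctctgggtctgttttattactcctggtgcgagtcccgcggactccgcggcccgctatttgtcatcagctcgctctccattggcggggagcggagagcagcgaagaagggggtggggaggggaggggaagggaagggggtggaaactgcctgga
ZEB1: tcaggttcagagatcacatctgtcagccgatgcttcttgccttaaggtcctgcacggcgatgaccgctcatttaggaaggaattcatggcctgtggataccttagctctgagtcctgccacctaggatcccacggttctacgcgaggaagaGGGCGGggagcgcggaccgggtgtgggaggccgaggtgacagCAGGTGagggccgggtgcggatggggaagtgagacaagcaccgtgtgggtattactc
The CLDN6 sequence holds GC boxes 61 and 16 bases before the start and no E-box. In the CDH2 sequence the GC box lies 177 bases before the start, and in the ZEB1 sequence an E-box lies 57 and a GC box 99 bases before it. The VIM sequence holds a GC box 46 bases before its start, and the ZEB2 sequence holds neither motif. Among 35116 promoters of the same length, 17.5% hold the E-box and 42.6% the GC box, and these motifs do not overlap in their letters. The accessible regions are in hg19, and no hg19 annotation was used here, so none of them was assigned to a promoter, exon or intron and the sequences were not placed against them.

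Of the 7 windows, 1 held regions that passed the test. Both regions of the CLDN6 window were lower in high than in mid, and no other region of the 54 passed the test. The test was edgeR's quasi-likelihood test with replicate number as a block, over all 118556 regions, and a region was called when its Benjamini-Hochberg adjusted p was under 0.01. By that rule 0 member regions were called higher in high and 2 (3.70%) higher in mid, against 2.32% and 3.77% of all regions. Thus by this test the share of members called in either direction was no larger than in the table as a whole. DESeq2 also called 0 and 2 (3.70%), against 0.621% and 2.67% of all regions. Its share toward mid was thus above that of the whole table, on 2 regions, and this was not tested. At an unadjusted p under 0.05 there were 7 member regions higher in high and 9 higher in mid, against 14.2% and 13.6% of all regions. The log2 fold change (high over mid throughout) had a median of 0.02 over the 54 regions and 0.03 over all regions.

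**Figure D1:**
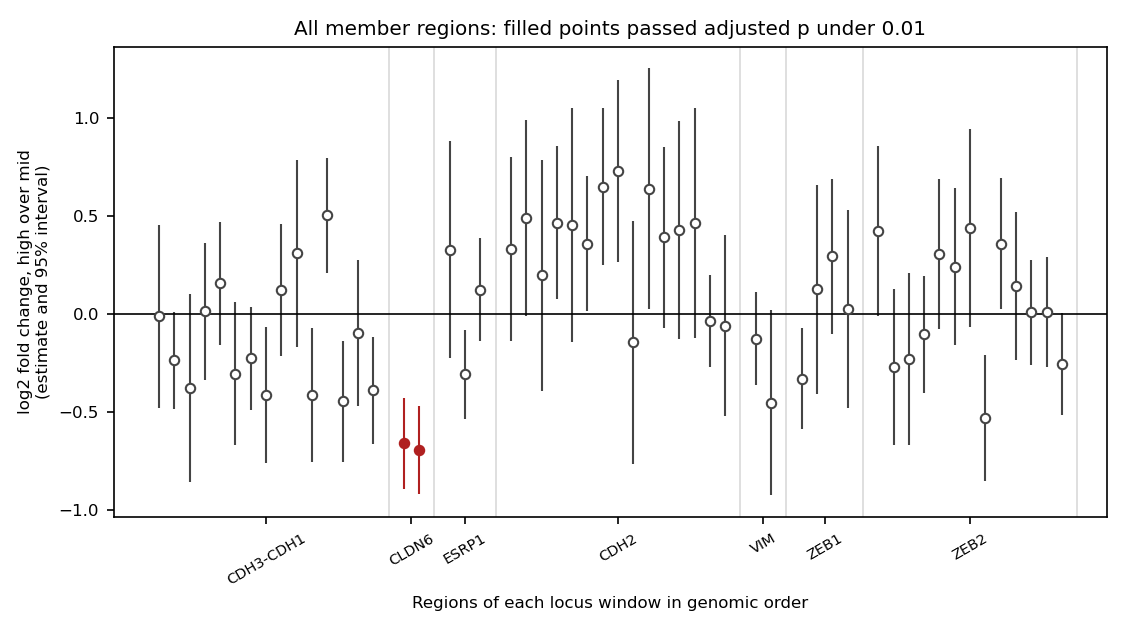
log2 fold change, high over mid, for each of the 54 regions (vertical axis; point, estimate; line, 95% interval), grouped by locus window and in genomic order within it (horizontal axis). The 2 filled points, both in the CLDN6 window, passed an adjusted p under 0.01. Most points of the CDH2 window lie above 0.

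The CLDN6 window held both called regions. Values are CPM, the reads of a region set against all region reads of its library, with library sizes scaled by TMM. In the region at chr16:3053082-3061379, 8298 bp wide, the high samples held 79.0, 98.8 and 98.5 CPM and the mid samples 161, 141 and 134 CPM in replicates 1, 2 and 3. Every high sample lay below every mid sample. The means were 92.1 ± 11.4 in high and 145 ± 13.6 in mid (SD, n = 3 each), a log2 fold change of -0.66 (SE 0.11, 95% interval -0.89 to -0.43, adjusted p = 4.74e-05 by edgeR's quasi-likelihood test). In the second region, at chr16:3069604-3075161 and 5558 bp wide, the high samples held 98.3, 93.8 and 112 CPM and the mid samples 190.2, 153 and 149.7 CPM. Again the populations did not overlap, and replicate 1 of mid stood highest. The log2 fold change was -0.69 (SE 0.11, 95% interval -0.92 to -0.47, adjusted p = 1.44e-05 by the same test). In each of the 3 same-numbered pairs both regions were lower in high.

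The window is dense in genes. RefSeq lists CLDN9, a claudin next to CLDN6, and TNFRSF12A, HCFC1R1, THOC6, BICDL2, GREP1 and LOC100128770 within 25 kb of CLDN6, so neither region can be assigned to CLDN6 alone. Both called regions were also wide. Of the 754 regions of 5000 bp or more in the table, 51.5% were called higher in mid and 0.265% higher in high, with a median log2 fold change of -0.45. With loess offsets fitted on region width, the log2 fold changes of the CLDN6 regions shrank to -0.16 (adjusted p = 0.294, edgeR) and -0.30 (adjusted p = 0.0293), and neither was called. Leaving out replicate 2 of mid also ended both calls, with adjusted p = 0.0170 and 0.0279 by edgeR, while the log2 fold changes stayed at -0.74 and -0.69. In that fit the calls over all regions fell as well, from 2747 to 371 higher in high and from 4472 to 432 higher in mid. Since the assay pools sorted cells, fewer cells with the locus open and fewer cuts per cell cannot be told apart.

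**Figure D2:**
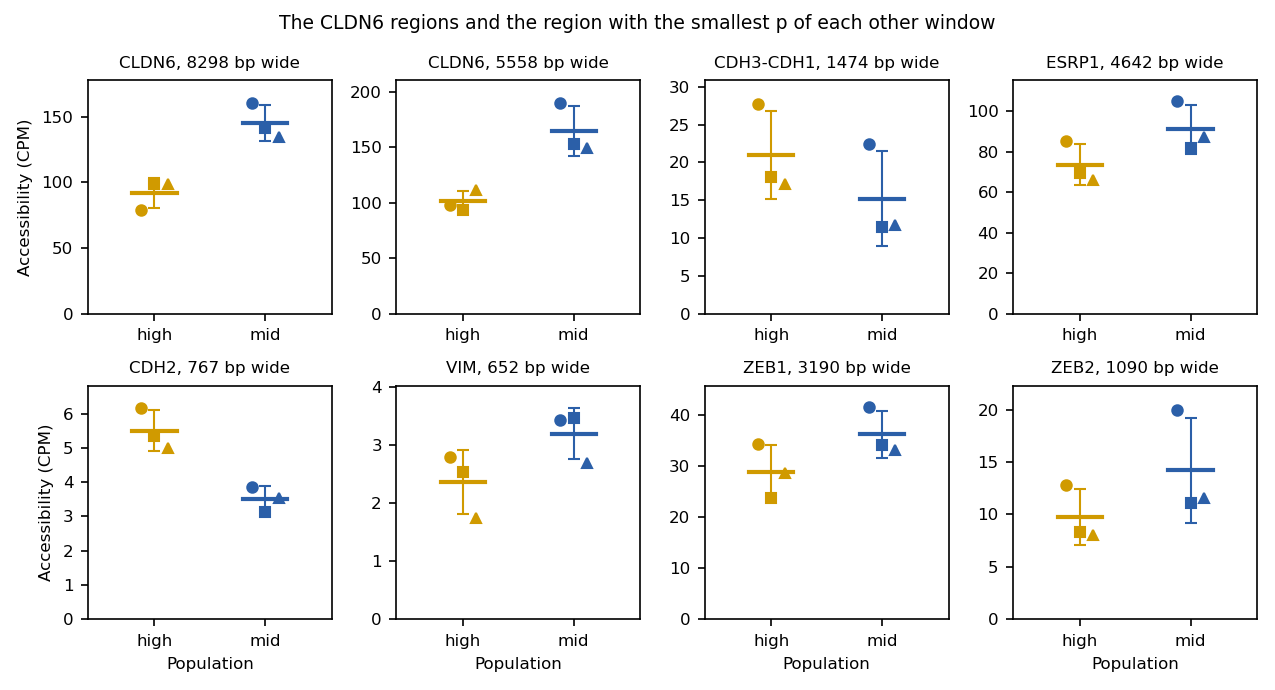
CPM per sample (vertical axes, from 0; circles, squares and triangles are replicates 1, 2 and 3) in high (yellow) and mid (blue), for both CLDN6 regions and for the region with the smallest p of each other window; bars are means and whiskers SD, n = 3. In the CLDN6 and CDH2 panels the populations do not overlap, and in the other panels they do.

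In the CDH3-CDH1 window the size of the median rested on the replicate 1 pair. Of its 15 regions, 10 had a negative and 5 a positive log2 fold change, with a median of -0.23 and a range of -0.45 to 0.50, and none was called. In 6 of the 15 all 3 pairs were lower in high, and in 1 all 3 were higher, with no share over all regions counted to set beside this. Without replicate 1 of mid the median was 0.02 with 8 of 15 positive, without replicate 1 of high it was -0.01, and without that pair it was -0.005. The leading region (the one with the highest average log2 CPM), at chr16:68676040-68681137 and 5098 bp wide, held 48.6, 53.5 and 59.6 CPM in high and 72.0, 58.6 and 60.4 CPM in mid. These values overlapped. It had a log2 fold change of -0.24 (SE 0.12, 95% interval -0.48 to 0.01, adjusted p = 0.193 by edgeR), and it turned to 0.04 with loess offsets on average log2 CPM and to 0.13 with those on width. The smallest p in the window belonged to a region that moved the other way. At chr16:68812169-68813642, 1474 bp wide, high held 27.7, 18.1 and 17.2 CPM and mid 22.4, 11.4 and 11.7 CPM. Replicate 1 was highest in both populations, so the populations overlapped while each pair was higher in high. Its log2 fold change was 0.50 (SE 0.15, 95% interval 0.21 to 0.79, adjusted p = 0.0149 by edgeR with the block and 0.243 without it). RefSeq lists TANGO6 within 25 kb of CDH1, so the regions of the window cannot be assigned to the cadherin genes alone. In 3 regions of the window every high sample lay below every mid sample, and in none did every high sample lie above. Over all 54 regions such a gap was seen in 9 with high above and 5 with high below, against 12.9% and 13.0% of all regions.

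The ESRP1 window held 3 regions. RefSeq lists DPY19L4 and LINC02894 within 25 kb of ESRP1, so these regions cannot be assigned to ESRP1 alone. Its leading region, at chr8:95650919-95655560 and 4642 bp wide, held 85.4, 69.6 and 66.0 CPM in high and 105, 81.8 and 87.1 CPM in mid. All 3 pairs were lower in high, although high replicate 1 lay above mid replicate 2. The log2 fold change was -0.31 (SE 0.11, 95% interval -0.54 to -0.08), which did not pass the test (adjusted p = 0.0589 by edgeR), and it was 0.01 and 0.03 under the loess offsets on average log2 CPM and on width. The other regions of the ESRP1 window had log2 fold changes of 0.33 and 0.12, neither called.

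CDH2, the N-cadherin gene, had positive values at most of its regions. Of the 15 regions in its window 12 had a positive log2 fold change, and the median was 0.43, against 0.03 over all regions. At an unadjusted p under 0.05 there were 5 regions higher in high and 0 higher in mid, and in 6 regions every high sample lay above every mid sample. Over all regions those shares were 14.2% and 13.6% for the p and 12.9% for the gap. No region was called. The leading region, at chr18:25754908-25759091 and 4184 bp wide, held 80.6, 62.1 and 59.6 CPM in high and 73.0, 66.5 and 66.7 CPM in mid. The mid values lay within the range of the high values. Its log2 fold change was -0.04 (SE 0.12, 95% interval -0.27 to 0.20, adjusted p = 0.866 by edgeR), and its sign turned under total count scaling (0.05) and both loess fits (0.26 and 0.27).

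The positive values in CDH2 came from the other 14 regions, which were narrow (415 to 1370 bp) and shallow, with 24 to 348 reads per sample. Their median log2 fold change was 0.44, against 0.10 over all 70157 regions under 1000 bp wide, and it stayed between 0.33 and 0.53 under the other 5 scalings of the libraries (RLE, upper quartile, total counts and both loess fits). In 11 of the 14 all 3 pairs were higher in high. The share of all regions with such agreement was not counted, and these regions are neighbours within 1 locus. The smallest p was at chr18:25668260-25669026, 767 bp wide, with 6.16, 5.35 and 5.0001 CPM in high and 3.87, 3.12 and 3.53 CPM in mid. The populations did not overlap there, and the log2 fold change was 0.65 (SE 0.20, 95% interval 0.25 to 1.05), short of the threshold with adjusted p = 0.0228 by edgeR's quasi-likelihood test. The largest log2 fold change of the window, 0.73 (SE 0.23, adjusted p = 0.0271 by edgeR), was at chr18:25689829-25690667, a region picked out after its values were seen.

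Median log2 fold changes in the windows of further mesenchymal genes went both ways. They were negative for SNAI1 (-0.40, with 0 of 6 regions positive), SNAI2 (-0.11) and TWIST1 (-0.07). In the window of FN1, the fibronectin gene, 6 of 7 regions were positive with a median of 0.56, and in that of CDH11, another mesenchymal cadherin, 7 of 9 with a median of 0.27. The window of PTPRC, a blood gene that stem cells should not express, had 7 of 8 positive with a median of 0.43, and 1 region there was called higher in high (log2 fold change 1.01, adjusted p = 0.00166 by edgeR). What the windows with positive medians share with CDH2 was not tested.

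**Figure D3:**
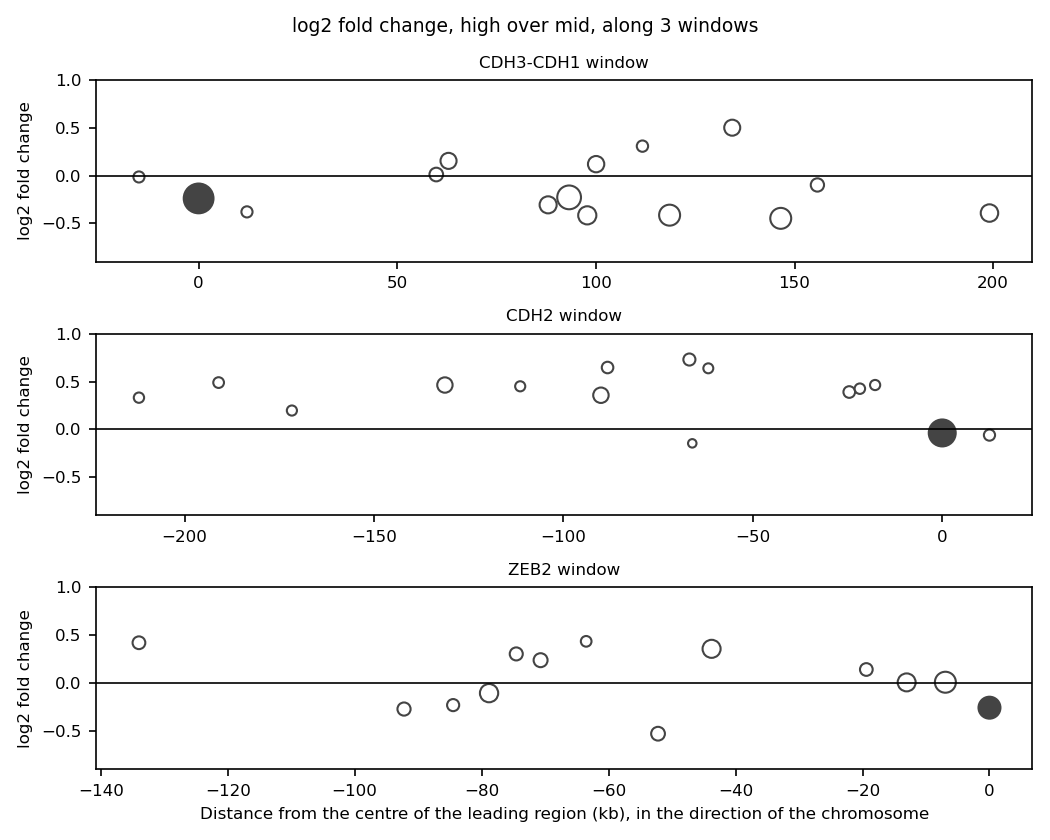
log2 fold change, high over mid (vertical axes) against distance in kb from the centre of the leading region (horizontal axes) in the CDH3-CDH1, CDH2 and ZEB2 windows; point area grows with region width, and the filled point is the leading region. In the CDH2 window the leading region sits near 0 while 12 of the other 14 points lie above 0; in the ZEB2 window 8 of 12 do.

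VIM, which codes for vimentin, had 2 regions, both lower in high in all 3 pairs and neither called. The leading region, at chr10:17268549-17273146 and 4598 bp wide, carried 95.5% of the reads of the window. It held 64.6, 51.1 and 51.8 CPM in high and 74.6, 56.4 and 53.0 CPM in mid. The populations overlapped, with replicate 1 highest in each. Its log2 fold change was -0.13 (SE 0.12, 95% interval -0.37 to 0.11, adjusted p = 0.505 by edgeR), and under the loess offsets it was 0.15 and 0.21. The other region, at chr10:17299516-17300167 and 652 bp wide, held 2.80, 2.52 and 1.74 CPM in high and 3.42, 3.46 and 2.68 CPM in mid, a log2 fold change of -0.45 (SE 0.24, adjusted p = 0.201 by edgeR). These values also overlapped.

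The loci of the repressors ZEB1 and ZEB2 held no called region. In ZEB1 the leading region, at chr10:31606988-31610177 and 3190 bp wide, held 34.4, 23.7 and 28.7 CPM in high and 41.5, 34.2 and 33.1 CPM in mid. Each pair was lower in high, and high replicate 1 lay within the mid range. This region had a log2 fold change of -0.33 (SE 0.13, 95% interval -0.59 to -0.07, adjusted p = 0.0749 by edgeR). The remaining 3 ZEB1 regions had log2 fold changes between 0.03 and 0.29, none of them called.

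ZEB2 was spread over 13 regions, 8 positive and 5 negative, with a median of 0.01 that turned to -0.01 under RLE and to -0.02 under upper quartile scaling. The leading region, at chr2:145279849-145282622 and 2774 bp wide, held 31.4, 26.5 and 23.1 CPM in high and 33.9, 32.7 and 29.6 CPM in mid. All pairs were lower in high, with some overlap between the populations, and the log2 fold change was -0.26 (SE 0.13, adjusted p = 0.184 by edgeR). The smallest p of the window was at chr2:145228481-145229570, 1090 bp wide, with 12.8, 8.31 and 8.07 CPM in high and 20.02, 11.1 and 11.5 CPM in mid. Replicate 1 was highest in both populations and each pair was lower in high. This log2 fold change was -0.53 (SE 0.16, 95% interval -0.85 to -0.21), with adjusted p = 0.0200 by edgeR. Positive and negative values were interspersed along the ZEB2 window.

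Reads summed over each window gave 1 value per sample and locus. Per kilobase of accessible region, ESRP1 (15.4 ± 1.82 CPM per kb, SD, n = 3) and CLDN6 (14.0 ± 1.19) were highest in high, and they did not differ beyond their spread. VIM followed with 11.1 ± 1.52, then CDH2 (8.001 ± 1.24), CDH3-CDH1 (7.99 ± 0.752), ZEB2 (7.82 ± 0.815) and ZEB1 (7.30 ± 0.932), and those last 4 lay within 1 SD of each other. In mid, CLDN6 stood first with 22.4 ± 2.59 CPM per kb, ahead of ESRP1 with 17.5 ± 1.89 and VIM with 12.3 ± 2.26. The lower group in mid ran from CDH3-CDH1 (9.01 ± 1.21) through ZEB1 (8.43 ± 0.872) and ZEB2 (8.13 ± 1.19) to CDH2 (7.27 ± 0.656), neighbours again within their spread.

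The summed CLDN6 window held 177, 193 and 210.2 CPM in high and 351, 294 and 284 CPM in mid. It was the 1 locus of 7 whose populations did not overlap. The log2 difference of high minus mid was -0.68 (exact two-sided permutation p = 0.1, the smallest p that 3 against 3 samples allow; 0.525 after Benjamini-Hochberg adjustment over the 7 loci). The CLDN6 difference ran from -0.80 to -0.52 over the fits leaving out samples. The remaining 6 loci had log2 differences of -0.21 (ZEB1), -0.19 (ESRP1), -0.17 (CDH3-CDH1), -0.14 (VIM), -0.05 (ZEB2) and 0.13 (CDH2), with exact permutation p from 0.3 to 0.7. That of CDH3-CDH1 shrank to -0.06 without replicate 1 of mid and to -0.0005 without the replicate 1 pair. CDH2 was higher in high in all 3 pairs (0.24, 0.08 and 0.07), and ESRP1, VIM and ZEB1 were lower in all 3.

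**Figure D4:**
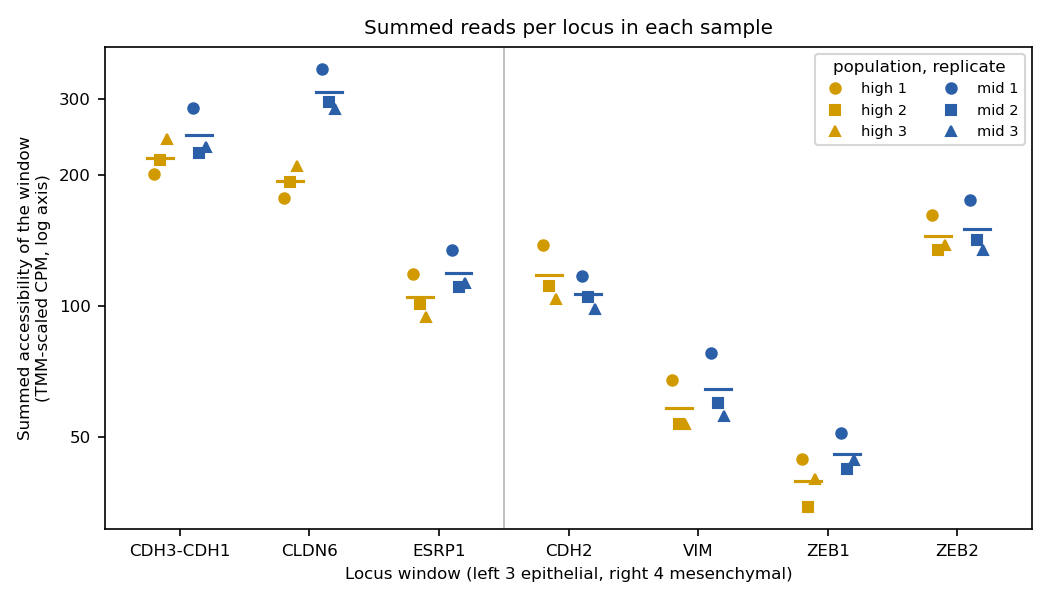
Summed TMM-scaled CPM of all regions in each locus window (vertical axis, log scale) for the 7 loci (horizontal axis), with yellow for high, blue for mid, symbols for replicates 1, 2 and 3, and lines for means. The populations are apart for CLDN6 and overlap for the other 6 loci.

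The epithelial windows were then set against the mesenchymal windows within each library, which needs no scaling between libraries. The ratio of epithelial to mesenchymal reads was 1.20, 1.53 and 1.63 in high and 1.83, 1.81 and 1.89 in mid. Every high sample lay below every mid sample, and replicate 1 of high was lowest. The means were 1.45 ± 0.223 and 1.84 ± 0.0448 (SD, n = 3 each), a log2 difference of -0.35 (exact two-sided permutation p = 0.1, the smallest possible), which shrank to -0.22 without replicate 1 of high. Without the CLDN6 window the ratios were 0.774, 0.952 and 1.003 in high and 0.995, 0.964 and 1.04 in mid, which overlap, and the log2 difference was -0.14 (exact permutation p = 0.3).

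By region, the 20 epithelial members had a median log2 fold change of -0.23, with 7 positive and 13 negative, and the 34 mesenchymal members a median of 0.22, with 23 positive and 11 negative. The size of both medians depended on single replicate pairs. The epithelial one was -0.02, with 10 of 20 positive, without replicate 1 of mid and -0.04 without replicate 1 of high. The mesenchymal one was 0.10, with 23 of 34 still positive, without replicate 2 of high or of mid. With the block, a sample whose partner is left out adds nothing to the contrast, so these fits cannot point to 1 library. The classes differed in region width as well, with a median of 1607.5 bp in the epithelial and 842 bp in the mesenchymal windows. In the whole table the median log2 fold change fell with width, from 0.10 under 1000 bp through 0.01 between 1000 and 2000 bp to -0.45 at 5000 bp or more. Among members under 1000 bp wide, the median was 0.15 over 4 epithelial and 0.32 over 22 mesenchymal regions. Among wider members it was -0.27 over 16 epithelial and -0.02 over 12 mesenchymal regions. The epithelial median was the lower one in both width groups. Of the 4 epithelial regions under 1000 bp, 2 were positive and 2 negative. The wider epithelial members ran to 8298 bp, both CLDN6 regions among them, and the wider mesenchymal ones to 4598 bp. Width was thus not equal between the classes within a group, and the difference was not tested.

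**Figure D5:**
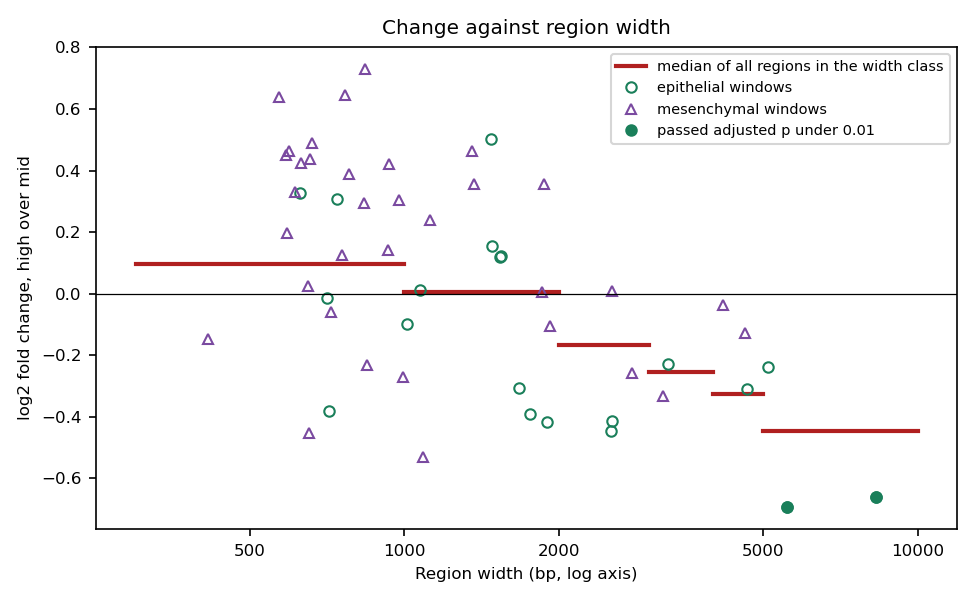
log2 fold change, high over mid (vertical axis) against region width (horizontal axis, bp, log scale) for members in epithelial (circles) and mesenchymal (triangles) windows; filled circles are the 2 called regions and red lines the median of all regions in a width class. The red lines step down from 0.10 to -0.45 with width, and the 2 called regions lie below the line of their class.

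Windows of 10 further epithelial genes (TJP1, DSP, CTNNB1, GRHL2, ESRP2, KRT8, KRT18, CLDN3, CLDN4 and OVOL2) held 61 regions. Of these, 1 was called higher in high and 2 higher in mid, with a median log2 fold change of -0.10. Over all regions 2.32% and 3.77% were called. The epithelial calls toward mid were in the KRT8-KRT18 window (log2 fold change -0.72, adjusted p = 3.18e-05 by edgeR, 4395 bp wide) and the TJP1 window (-0.47, adjusted p = 0.00996 by edgeR). The epithelial call toward high was in the CTNNB1 window (1.18, adjusted p = 0.000169 by edgeR). DESeq2 called the KRT8-KRT18 region but not the TJP1 or CTNNB1 region. Windows of 5 further mesenchymal genes (SNAI1, SNAI2, TWIST1, FN1 and CDH11) held 28 regions, with 1 called higher in high and 2 higher in mid and a median of 0.002. The 2 mesenchymal calls toward mid were both in the window of SNAI1, the Snail repressor that binds the same E-boxes as the ZEB factors. The 1 mesenchymal call toward high was in the CDH11 window, with a log2 fold change of 1.32 (SE 0.19, adjusted p = 2.58e-06 by edgeR). DESeq2 did not call it (adjusted p = 0.171), and it called 0 regions higher in high in either set of further windows. The CDH11 region held 35.4, 18.0 and 13.1 CPM in high and 6.53, 8.48 and 9.62 CPM in mid. The populations did not overlap, but the log2 difference fell from 2.42 in the replicate 1 pair to 0.44 in the replicate 3 pair. The leading SNAI1 region held 16.9, 18.3 and 16.9 CPM in high and 44.6, 40.9 and 32.9 CPM in mid. The populations were far apart, with a log2 fold change of -1.17 (SE 0.14, adjusted p = 2.29e-08 by edgeR).

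Leading regions were also compared across the 6 samples, as a description. CLDN6 ran most like SNAI1 (Pearson r = 0.950, Spearman rho = 0.829) and ESRP2 (0.927 and 0.771) among 19 other windows. CDH3-CDH1 ran most like KRT8-KRT18 (0.968 and 0.829) and CLDN3-CLDN4 (0.918 and 0.943), ESRP1 like CTNNB1 (0.937 and 0.886) and ZEB1 (0.895 and 0.771). CDH2 ran most like TWIST1 (0.939 and 0.829) and VIM (0.788 and 0.829), and VIM like OVOL2 (0.919 and 1.0) and TWIST1 (0.848 and 0.771). ZEB1 ran most like CTNNB1 (0.989 and 0.943) and OVOL2 (0.964 and 1.0), and ZEB2 like ESRP1 (0.885 and 0.771) and TJP1 (0.867 and 0.829). All these values share the 6 libraries and their depth and were picked as the highest of 19.

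Total counts in regions ran from 15486251 to 26225539 in high and from 23091028 to 29025274 in mid, and the member regions took 13710 to 31761 of them per sample. A member region held between 24 and 5066 reads in a sample. As a check of the label, the windows of the pluripotency genes POU5F1, SOX2 and LIN28A held 3, 3 and 4 regions, and summed per window they gave 69.8 to 99.8 CPM in high and 89.5 to 145 CPM in mid. All 10 of these regions had negative log2 fold changes, with a median of -0.40, and 2 were called higher in mid. They were thus lower in the population sorted for the higher GCTM-2 and CD9 levels, and moved in the same direction as the CLDN6 regions. Their part in the CLDN6 result was not tested. The window of the liver gene ALB held 1 region with 0.952 to 2.11 CPM. The 150 kb window of the blood gene PTPRC held 8 regions with 43.7 to 56.6 CPM in high and 35.3 to 43.3 CPM in mid.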

How the data were processed

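FAST-ATAC libraries of sorted WA09 cells, 3 biological replicates per population, were analysed. The deposited values are raw counts of reads per region: after trimming (Trimmomatic) and alignment to hg19 (BWA, 0.7.15 in the submitters' processing notes), the authors dropped duplicates and moved each read to the position cut by Tn5. They pooled the replicates of a population to call regions with MACS (1.4.2 in those notes; the methods of the study name another release), joined both region sets, took out the blacklist and used bedtools to count. Calling on pooled alignments hides how often single replicates gave a region, and a wide region gathers more reads, which gives its test more power.

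Region starts are given 1 higher than deposited, the table being read as counting from 0. The fit used the quasi-likelihood test of edgeR 4.0.16 under R 4.3.3 (TMM scaling, no filter, replicate number as a block of 3 levels, after the batch term of the study, whose coding is not given in the sources used here). P-values were adjusted by Benjamini-Hochberg over all 118556 regions and called under 0.01. DESeq2 1.42.0 (independent filtering off) and limma 3.58.1 (loess span 0.3) served alternatives. Log2 CPM used a prior count of 2. Sums and ratios were compared by exact permutation tests (scipy 1.17.1). The labels give each replicate number once per population, and the numbers were treated as pairs. Deviations from the population mean correlated at 0.302, 0.191 and 0.234 for same-numbered samples, and at -0.257 to 0.06 for different numbers. Since deviations sum to 0 within a population, the low values for different numbers are no separate sign of pairing.

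Named regions were every called region, the region with the highest average log2 CPM and the region with the smallest p of each window. The windows, gene lists and this rule were chosen with earlier results of these data known. Windows of the other genes were set from general knowledge of hg19 positions and checked only for chromosome (15 of 15 genes matched) and length (14 of 15 windows were longer than the RefSeq gene, TJP1 being the exception). Sequences and gene neighbours are from RefSeq GRCh38.p14, and no position was compared between builds. Intervals are for the log2 fold change estimated by the quasi-likelihood fit with the replicate block, and the spread between samples is given by the SD.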

Additional observations from a re-analysis of the deposited data

How the results depend on the processing

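Without the replicate block, 0 member regions were called higher in high and 2 higher in mid, as with it, and no other call changed. Calls higher in high became 2 with total counts, 1 with loess offsets on average log2 CPM, 1 with those on width and 3 at adjusted p under 0.05, and ran from 0 to 1 over the fits leaving out samples. Calls higher in mid became 1 with replicate 2 set apart as a batch, 0 with loess offsets on average log2 CPM, 1 (a ZEB2 region) with those on width, 3 (a ZEB2 region added) with upper quartile scaling and 5 at adjusted p under 0.05, and ran from 0 to 3 over the fits leaving out samples, with 0 when replicate 2 of mid was left out alone or with its pair; without mid replicate 2 the CLDN6 log2 fold changes stayed at -0.74 and -0.69, and calls over all regions fell to 371 and 432. The log2 fold change of the leading region turned to 0.035 and 0.13 (CDH3-CDH1), 0.011 and 0.031 (ESRP1), 0.26 and 0.27 (CDH2) and 0.15 and 0.21 (VIM) with loess offsets on average log2 CPM and on width. For CDH2 it also turned to 0.054 with total counts, to 0.024 without the replicate 3 pair or its mid sample and to 0.032 without replicate 3 of high; the fits leaving out samples ran from -0.15 to 0.032.

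With total counts the log2 differences of summed reads moved to -0.10 (ESRP1), 0.22 (CDH2), -0.051 (VIM), -0.12 (ZEB1) and 0.041 (ZEB2). Over the fits leaving out samples they ran from -0.283 to -0.00047 for CDH3-CDH1, -0.284 to -0.105 for ESRP1, 0.00994 to 0.218 for CDH2, -0.253 to 0.00206 for VIM, -0.299 to -0.113 for ZEB1 and -0.134 to 0.0658 for ZEB2. The cause of these shifts was not tested. The ratio of epithelial to mesenchymal reads kept its direction in every alternative tried and ran from -0.44 to -0.22 over the fits leaving out samples. The other alternatives were leading regions only, any overlap with a window and leaving out the CLDN6 window, the last chosen after seeing the data. No loess offset on width or average log2 CPM was applied to the ratio, and the classes differ in region width. Counting a region by any overlap with a window changed no membership. Member regions held as few as 24 reads in a sample, and the SE of the log2 fold change was 0.31 in the narrowest CDH2 region against 0.11 at CLDN6.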
